A study of Homo sapiens with 12 samples.

Results

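The genes described are 9 negative feedback regulators of SMAD signalling: SMAD7, SMURF1, SMURF2, PMEPA1, LDLRAD4, BAMBI, SKI, SKIL and TGIF1. They were taken by symbol from a gene count table of 58735 genes, and all 9 were among the 18560 genes with enough counts to be tested. They were followed in LX-2, an immortalised human hepatic stellate cell line, sequenced as bulk RNA in 4 groups of 3 libraries. The con cells were untreated, the TGFB cells received 5 ng/ml recombinant human TGF-β1 for 24 hours, the SiNAT10 cells were transfected with an siRNA against NAT10, and the SiNAT10_TGFB cells received TGF-β1 for 24 hours from 48 hours after that transfection. NAT10 is an RNA acetyltransferase that places N4-acetylcytidine on RNA. The genotype was wild type throughout and every library came from the same line. No group with a control siRNA is named, so the effect of losing NAT10 and that of the lipid transfection cannot be told apart, and the time at which SiNAT10 cells without TGF-β1 were collected is not stated. The labels call the replicates biological without naming separate cultures, so p-values measure the spread between these libraries, which may be technical.

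TGF-β binds a pair of serine/threonine kinase receptors, which phosphorylate SMAD2 and SMAD3; these join SMAD4, enter the nucleus and switch on target genes. Many of those targets in turn restrain the pathway, at the receptor, at the membrane or in the nucleus, and so limit how long and how strongly a cell responds. In hepatic stellate cells this pathway drives activation to matrix-producing myofibroblasts, the main source of scar in liver fibrosis.

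Gene counts totalled 25877008 to 35132582 per library, with at most 28311434 in each siRNA library and at least 29797990 in each other library. A value of 3 counts, the lowest level taken as detected, equalled 0.0871 to 0.115 counts per 1000000 counts of the scaled library (CPM). NAT10 itself was at 62.9 to 69.9 CPM in con and 65.6 to 67.8 in TGFB libraries, against 17.9 to 19.5 in SiNAT10 and 15.8 to 20.7 in SiNAT10_TGFB libraries. Of 14 markers of stellate cells and myofibroblasts, 6 were at 1 CPM or more in every library and 5 below 1 in every library, with LRAT and DCN at 0 throughout, COL1A1 at 769 to 7800 and VIM at 798 to 1508 CPM. The summed level of these markers was 4484 to 4733 CPM in con, 9813 to 10480 in TGFB, 1831 to 1923 in SiNAT10 and 2396 to 2648 in SiNAT10_TGFB libraries. Most of this sum was COL1A1, at means of 3041, 7550, 880 and 1364 CPM in these groups, and VIM. Not every marker followed it: RELN was at 2.51, 0.306, 12.4 and 2.03 CPM and ACTA2 at 3.27, 4.21, 4.33 and 4.27. The part of the sum in the results below was not tested. Of markers of other liver cells, 6 of 7 hepatocyte, 3 of 5 cholangiocyte, 4 of 6 leukocyte and 3 of 5 endothelial genes were below 1 CPM in every library. The exceptions included SOX9 at 35.3 to 70.6 CPM and SERPINA1 at 13.7 to 28.4. The summed cholangiocyte markers, mostly SOX9, were at 41.6 to 47.4 CPM in con, 41.3 to 44.3 in TGFB, 66.2 to 73.9 in SiNAT10 and 40.6 to 43.8 in SiNAT10_TGFB libraries. The summed hepatocyte markers, nearly all SERPINA1, were at 15.1 to 19.0, 13.7 to 15.01, 23.0 to 24.4 and 24.4 to 28.4. The summed leukocyte markers were at 4.78 to 5.93 CPM in con, 7.21 to 8.78 in TGFB, 5.94 to 6.52 in SiNAT10 and 6.64 to 6.84 in SiNAT10_TGFB libraries. Most of this sum was CSF1R, at means of 1.88, 6.08, 1.32 and 2.33 CPM in these groups, and CD14, at 3.13, 1.56, 4.40 and 4.13. The part of these sums was not tested either. In bulk RNA, a change in the share of cells that express a gene and a change in RNA per cell cannot be told apart.

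SMADs bind short DNA boxes, and the promoters of SMAD7, PMEPA1 and SKIL, the 3 regulators with CPM patterns most alike, are shown so that these boxes can be seen. The windows run from 250 bases before to 50 bases after a transcript start, 5′ to 3′ on the gene's strand, from RefSeq on GRCh38.p14. For SMAD7 and PMEPA1, which have several starts, the window with the most boxes is given, and gene counts do not tell which start LX-2 cells use. Capitals mark CAGAC or its reverse complement GTCTG, the SMAD box, and GGCGCC, a GC-rich SMAD element.
SMAD7, chr18:48950916-48951215, minus strand: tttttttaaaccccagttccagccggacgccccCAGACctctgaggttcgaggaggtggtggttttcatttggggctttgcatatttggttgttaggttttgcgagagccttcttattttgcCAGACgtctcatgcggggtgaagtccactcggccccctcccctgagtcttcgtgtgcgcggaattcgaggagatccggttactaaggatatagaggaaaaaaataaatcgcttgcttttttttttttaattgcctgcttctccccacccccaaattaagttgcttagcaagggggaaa
PMEPA1, chr20:57709966-57710265, minus strand: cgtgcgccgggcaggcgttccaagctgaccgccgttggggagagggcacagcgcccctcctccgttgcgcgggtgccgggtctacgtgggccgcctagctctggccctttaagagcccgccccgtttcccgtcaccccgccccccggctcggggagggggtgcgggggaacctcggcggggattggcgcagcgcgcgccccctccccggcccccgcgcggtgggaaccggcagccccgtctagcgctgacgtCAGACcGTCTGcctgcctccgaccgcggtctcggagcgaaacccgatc
SKIL, chr3:170357465-170357764, plus strand: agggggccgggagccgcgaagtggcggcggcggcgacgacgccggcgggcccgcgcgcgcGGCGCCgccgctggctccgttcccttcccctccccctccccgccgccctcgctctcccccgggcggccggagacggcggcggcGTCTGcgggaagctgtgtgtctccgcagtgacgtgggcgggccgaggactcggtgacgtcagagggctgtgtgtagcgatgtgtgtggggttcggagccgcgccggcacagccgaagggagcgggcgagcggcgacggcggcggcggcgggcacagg
The SMAD7 window holds 2 boxes and the PMEPA1 window 2, set head to head with 1 base between them. The SKIL window holds 1 box and 1 GGCGCC.

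RefSeq windows matched 8 of the 9 regulators, 27 windows in all, some of which overlap within a gene; SKI had none. Both strands were searched. CAGAC or GTCTG was present in 20 of the 27 windows (74.1%), against 45.3% of all 35116 windows of the table. It was in at least 1 window of each of the 8 genes: 6 of 9 for LDLRAD4, 5 of 7 for TGIF1, 3 of 4 for PMEPA1, 2 of 3 for SMAD7 and the single window of SKIL, BAMBI, SMURF1 and SMURF2. No share per gene is given for the whole table, and a gene with more windows has more places for a match. Overlapping windows can also count the same box again. Whether the regulators have more boxes than other genes was thus not tested. GGCGCC was in 4 windows (14.8%, against 19.2% of all), those of BAMBI and SKIL and 1 each of LDLRAD4 and PMEPA1. The palindrome GTCTAGAC (0.202% of all windows) and the AP-1 element TGACTCA or TGAGTCA (4.95%) matched none of the 27. A match is a description of letters only, and whether boxes go with the response to TGF-β1 was not tested.

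Levels of different genes were compared as deposited FPKM (counts scaled for gene length and library size). The length is that of all annotated exons of a gene together, not of 1 transcript. It is 2314 bases for BAMBI, 8222 for TGIF1 and 16759 for LDLRAD4. The order of genes and the ratios between them thus depend in part on the annotation. In con cells SMURF2 was highest at a mean of 34.3 FPKM, followed by SKI at 19.2, SMURF1 at 14.4 and SMAD7 at 6.06. SKIL at 4.21 and TGIF1 at 3.89 came next and had overlapping libraries, as had BAMBI at 2.41 and PMEPA1 at 2.13. LDLRAD4 was lowest in every group, at 0.0517 FPKM in con. With TGF-β1 the order opened up: PMEPA1 moved from the eighth place to the first at 64.4 FPKM, above SMURF2 at 42.8, SKI at 21.0, SMURF1 at 19.4, SMAD7 at 16.8 and SKIL at 11.6, and no neighbouring genes overlapped. TGIF1 dropped to the eighth place at 3.18 FPKM, below BAMBI at 4.14.

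In SiNAT10 cells SMURF2 reached 61.1 FPKM, and below SKI at 18.7 and SMURF1 at 12.1 stood 4 genes with overlapping neighbours: TGIF1 at 5.31, SMAD7 at 4.93, BAMBI at 4.04 and SKIL at 3.43. PMEPA1 was at 1.64. With siRNA and TGF-β1 together SMURF2 was again first at 95.8 FPKM, ahead of PMEPA1 at 41.0, while SKI at 21.1, SMURF1 at 18.5 and SMAD7 at 17.2 overlapped in turn and LDLRAD4 was at 0.321. The first place on this scale thus belonged to PMEPA1 under TGF-β1 alone and to SMURF2 in the 3 other groups.

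**Figure D1:**
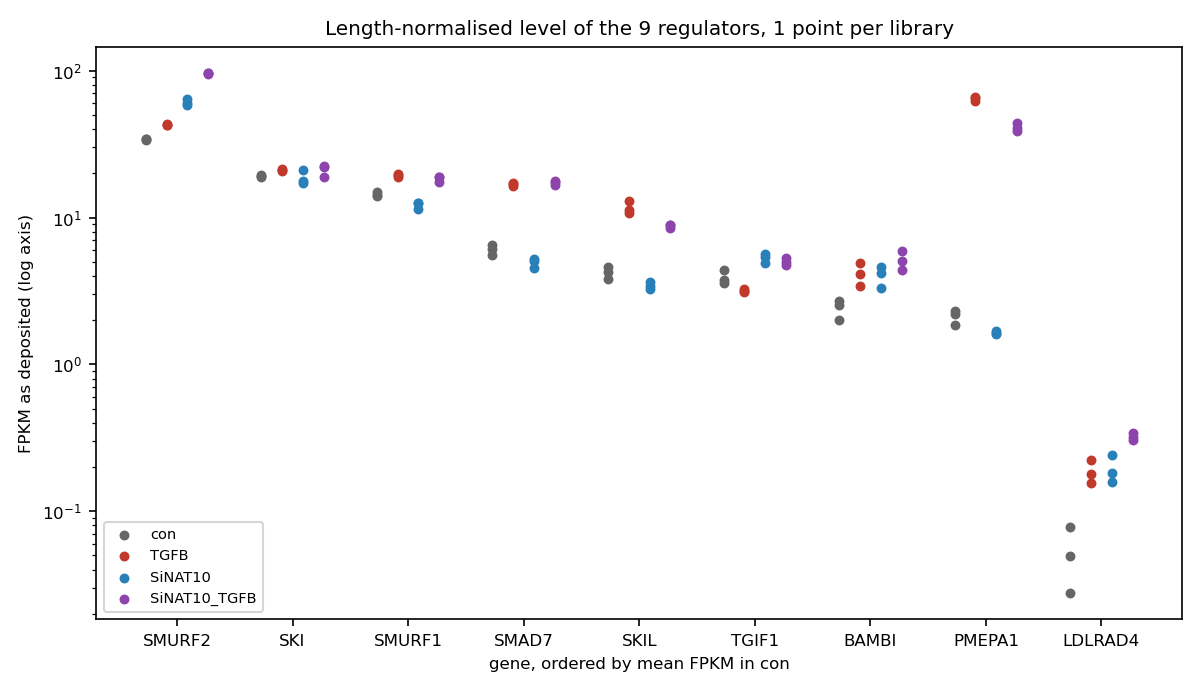
Deposited FPKM (log axis) of the 9 regulators in the 4 groups; points are libraries, coloured by group, and genes are ordered by their mean in con. PMEPA1 moves from 2.13 in con to 64.4 in TGFB, SMURF2 climbs to 95.8 in SiNAT10_TGFB, and LDLRAD4 stays lowest.

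TGF-β1 without siRNA raised 7 of the 9 regulators, lowered TGIF1 and left SKI without a call. The test was edgeR's quasi-likelihood test on counts over all 18560 genes with Benjamini-Hochberg adjustment, called at an adjusted p under 0.05. In that comparison 11.9% of all genes were called higher and 12.2% lower. The median log2 fold change of the 9 was 0.773, against −0.00647 over all genes. In siRNA-treated cells the same cytokine raised 5 regulators and lowered none at an adjusted p under 0.05 (5.92% of all genes higher, 5.15% lower). At an unadjusted p under 0.05 there were 8 higher and none lower, and DESeq2 and limma voom each called 6 higher, LDLRAD4 added, and none lower. Shares of all genes at the unadjusted p and with these tools are not given, so those counts have no background. The median of the 9 for TGF-β1 in siRNA-treated cells was 0.645, against −0.00416 over all genes.

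The NAT10 siRNA had no common direction over the set. Without TGF-β1 it was followed by higher levels of 4 regulators (SMURF2, LDLRAD4, BAMBI, TGIF1) and lower levels of 4 (PMEPA1, SKIL, SMAD7, SMURF1); 26.4% of all genes were called higher and 26.4% lower. Under TGF-β1 it raised 3 (SMURF2, TGIF1, LDLRAD4) and lowered 2 (PMEPA1, SKIL), against 26.3% and 26.8% of all genes. More than 1 in 2 genes at large were called in each of these comparisons, so a call among the 9 does not set them apart. Against con, the combined treatment raised 8 and lowered none, at either p and with either other tool. By edgeR at the adjusted p, 27.3% of all genes were higher and 27.3% lower. SKI was the 1 without a call. These comparisons share group libraries with those above.

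**Figure D2:**
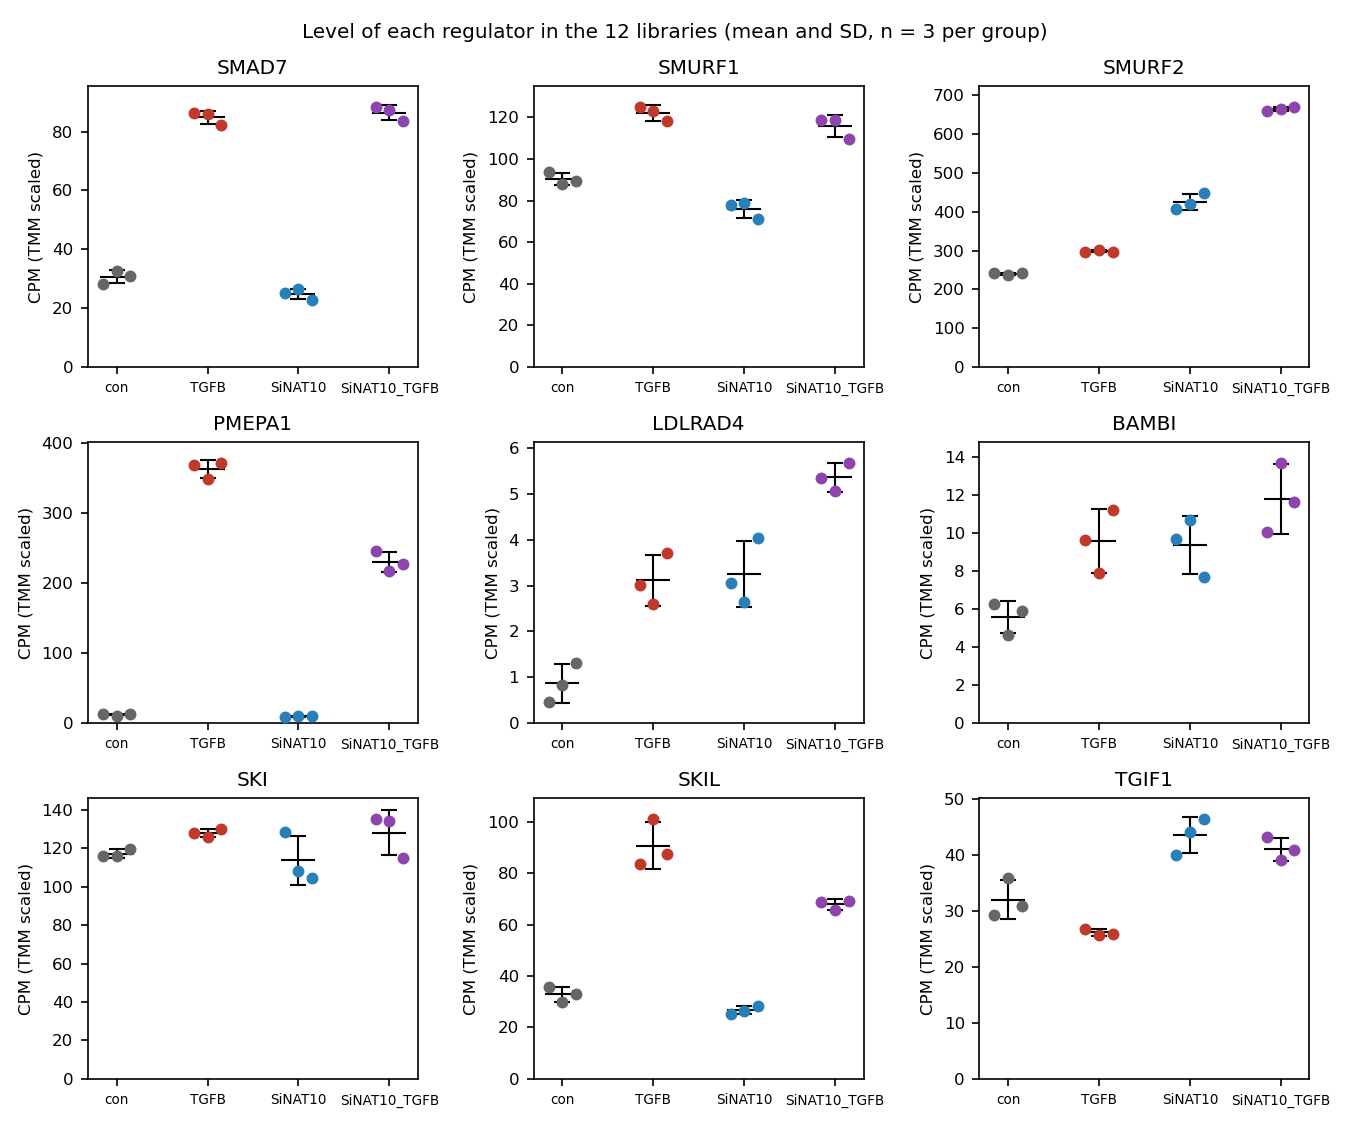
CPM of each regulator in the 12 libraries, 1 panel per gene with its own axis from 0; points are libraries, bars are means with SD (n = 3). PMEPA1, SMAD7 and SKIL are high in both TGF-β1 groups, SMURF2 and TGIF1 in both siRNA groups.

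SMAD7, the inhibitory SMAD that occupies the type I receptor and brings ubiquitin ligases to it (ENSG00000101665; GRCh38 chromosome 18, 48919853 to 48952052, minus strand), moved more with TGF-β1 than with the siRNA. Its CPM was 28.2, 32.7 and 30.9 in con (mean 30.6 ± 2.23, SD, n = 3) and 86.4, 86.0 and 82.4 in TGFB (84.9 ± 2.19). It was 25.3, 26.4 and 22.9 in SiNAT10 (24.8 ± 1.76) and 88.4, 87.3 and 83.6 in SiNAT10_TGFB (86.4 ± 2.55). All TGF-β1 libraries lay above all others, the 2 TGF-β1 groups overlapped, and SiNAT10 lay below con. The rise was 1.47 on the log2 scale (SE 0.073; 2.78-fold; adjusted p = 2.23e-13) without siRNA and 1.80 (SE 0.075; 3.48-fold; adjusted p = 2.29e-14) with it. Between SiNAT10_TGFB and TGFB the difference was 0.03 (95% interval −0.12 to 0.17; adjusted p = 0.788). Without TGF-β1, SMAD7 fell by 0.30 with the siRNA (SE 0.076, adjusted p = 0.00204). The difference between its TGF-β1 effects was 0.32 (95% interval 0.11 to 0.54; adjusted p = 0.088), which did not pass, though it did with library size as the scaling (0.40, adjusted p = 0.0252) and with DESeq2 (0.33, adjusted p = 0.0402), over a range of 0.0097 to 0.165 across the alternatives that kept all libraries.

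SMURF1 and SMURF2, the paired HECT ubiquitin ligases that SMAD7 carries to the receptor and that mark receptors and SMADs for degradation, parted under the siRNA. SMURF1 (ENSG00000198742; chromosome 7, 99027438 to 99144100, minus strand) was at 90.4 ± 3.00 CPM in con, 122 ± 3.61 in TGFB, 76.0 ± 4.14 in SiNAT10 and 116 ± 5.21 in SiNAT10_TGFB (SD, n = 3 each). TGF-β1 raised it by 0.43 (SE 0.062, adjusted p = 1.05e-05) without and by 0.61 (SE 0.063, adjusted p = 1.86e-07) with siRNA. It fell by 0.25 with the siRNA alone (SE 0.063, adjusted p = 0.00192), all SiNAT10 libraries lying below all con libraries, and was not called under TGF-β1 (−0.08; 95% interval −0.21 to 0.05; adjusted p = 0.31). Of its exon bases 11.7% overlap TRRAP on the other strand. TRRAP was at 359.8 ± 18.8, 340.3 ± 18.8, 270.1 ± 25.4 and 280.7 ± 22.6 CPM in con, TGFB, SiNAT10 and SiNAT10_TGFB, and the labels do not say whether strand was used in counting, so reads of the 2 genes cannot be told apart where they overlap.

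SMURF2 (ENSG00000108854; chromosome 17, 64542295 to 64662068, minus strand) rose in every step of the design. Its CPM was 241.0, 236 and 241.0 in con (239 ± 3.05) and 297, 301 and 297 in TGFB (298 ± 1.97). With the siRNA it was 408, 419 and 449 (425 ± 21.1), and with siRNA and TGF-β1 659.8, 665 and 670.4 (665 ± 5.28). The 4 groups did not overlap and stood in that order. The siRNA raised it by 0.83 (SE 0.051; 1.78-fold; adjusted p = 4.21e-12) without TGF-β1 and by 1.16 (SE 0.051; 2.23-fold; adjusted p = 1.08e-14) under TGF-β1. TGF-β1 raised it by 0.32 (SE 0.051; 1.25-fold; adjusted p = 4.09e-05) without and by 0.65 (SE 0.051; 1.56-fold; adjusted p = 1.74e-09) with siRNA, gains of 59.1 and 239.9 CPM. With library size as the scaling, the TGF-β1 effect without siRNA was 0.18 (adjusted p = 0.00749). The difference between these 2 effects was 0.33 (SE 0.071; 95% interval 0.18 to 0.47; adjusted p = 0.00797), the only interaction called among the 9 regulators. Of SMURF2's exon bases 2.40% overlap CEP95 on the other strand, at 32.7 to 41.0 CPM in the group means. The pseudogene SMURF2P1 was at 3.91 to 5.33 CPM.

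The ratio of SMURF2 to SMURF1, per length, showed the parting of the ligases in each library. In FPKM it was 2.32 to 2.43 in con (2.39 ± 0.063, SD, n = 3), 2.14 to 2.27 in TGFB (2.203 ± 0.065), 4.71 to 5.68 in SiNAT10 (5.07 ± 0.53) and 5.01 to 5.51 in SiNAT10_TGFB (5.19 ± 0.28). All siRNA libraries lay above all others, and the 2 siRNA groups overlapped.

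**Figure D3:**
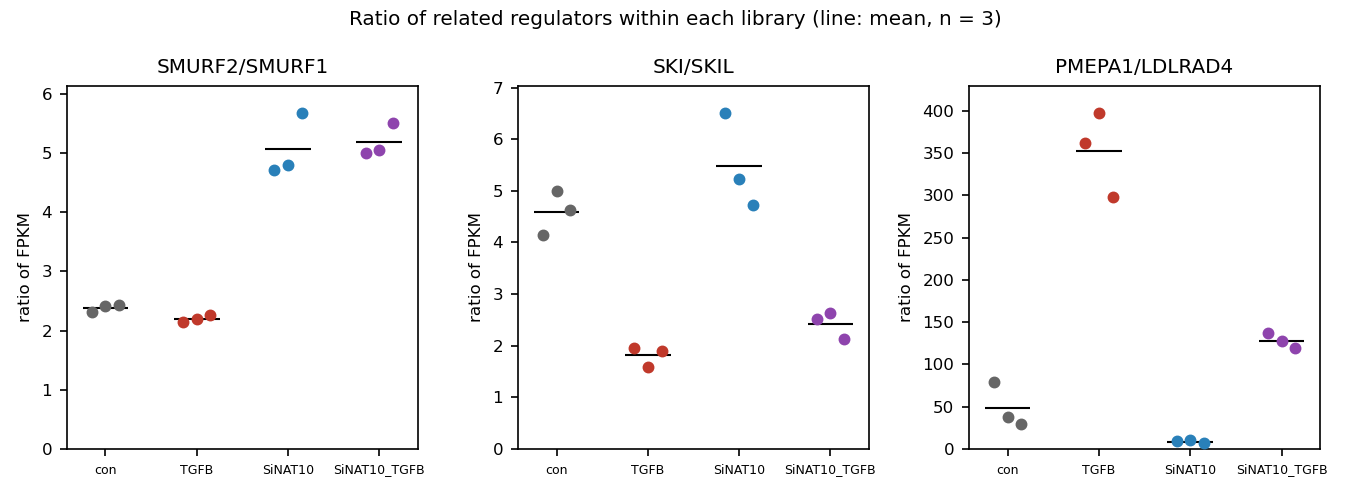
Ratio of deposited FPKM in each library for SMURF2 to SMURF1, SKI to SKIL and PMEPA1 to LDLRAD4, each axis from 0; points are libraries and lines are means (n = 3). The first ratio is at least 4.71 in every siRNA library and at most 2.43 in the others; the second is lower in both TGF-β1 groups; the third is highest in TGFB.

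PMEPA1 and LDLRAD4 encode related membrane proteins that hold receptor-activated SMADs away from the adaptor SARA, and so from the receptor. PMEPA1 (ENSG00000124225; chromosome 20, 57648392 to 57711536, minus strand) showed the steepest response of the set. Its CPM was 12.4, 10.5 and 13.1 in con (11.99 ± 1.36) and 368, 348 and 371 in TGFB (362 ± 12.5). In SiNAT10 it was 8.99, 9.28 and 9.41 (9.23 ± 0.22), and in SiNAT10_TGFB 246, 217 and 227 (229.6 ± 14.6). The groups did not overlap. TGF-β1 raised PMEPA1 by 4.91 (SE 0.081; 30.2-fold; adjusted p = 6.4e-22), rank 20 from the highest of all genes tested, and by 4.64 with siRNA (SE 0.083; 24.9-fold; adjusted p = 3.85e-21), rank 11. The siRNA lowered it under TGF-β1 by a log2 change of −0.66 (SE 0.066, adjusted p = 1.36e-08), to 63.4% of the TGFB mean, and without TGF-β1 by −0.38 (SE 0.088, adjusted p = 0.000872). Its interaction was −0.28 (SE 0.11, adjusted p = 0.198). On the log2(FPKM + 1) scale in limma it was −0.40, called with the filter on low counts (adjusted p = 0.0317) and not without it (adjusted p = 0.0656), and with a pseudocount of 0.1 it was −0.30 (adjusted p = 0.193). Of its exon bases 6.10% overlap NKILA, an antisense RNA at 1.49 ± 0.40, 9.66 ± 1.93, 0.85 ± 0.25 and 5.69 ± 0.32 CPM in con, TGFB, SiNAT10 and SiNAT10_TGFB.

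LDLRAD4 (ENSG00000168675; chromosome 18, 13217498 to 13652755, plus strand) was a low gene that went up with either treatment. Its counts were 16, 25 and 42 in con, 98, 84 and 110 in TGFB, 89, 74 and 113 in SiNAT10 and 154, 132 and 157 in SiNAT10_TGFB. In CPM these were 0.87 ± 0.43, 3.12 ± 0.56, 3.25 ± 0.72 and 5.37 ± 0.31 (SD, n = 3). Con lay below and SiNAT10_TGFB above all other libraries, while TGFB and SiNAT10 overlapped. LDLRAD4 rose by 1.84 with TGF-β1 (SE 0.28, adjusted p = 1.88e-05), by 1.90 with the siRNA (SE 0.28, adjusted p = 4.05e-06) and by 2.63 with both (SE 0.27, adjusted p = 2.21e-08). The siRNA raised it under TGF-β1 by 0.79 (SE 0.24, adjusted p = 0.00785). TGF-β1 in siRNA cells gave 0.72 (SE 0.24, adjusted p = 0.0538), just outside the threshold. That difference was called without con replicate 1 (adjusted p = 0.024), con replicate 3 (adjusted p = 0.03) or SiNAT10 replicate 3 (0.91, adjusted p = 0.0205), over a range of 0.0205 to 0.219 across the libraries left out, and with DESeq2 (0.73, adjusted p = 0.0272) and limma voom (0.75, adjusted p = 0.0198). Its interaction was −1.12 (95% interval −1.88 to −0.36; adjusted p = 0.1), and without con replicate 3, the con library with most LDLRAD4 counts, −1.55 (adjusted p = 0.02, in a range of 0.02 to 0.269 over the libraries left out).

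The ratio of PMEPA1 to LDLRAD4 in FPKM was 49.0 ± 26.9 in con, 353 ± 50.5 in TGFB, 8.73 ± 1.77 in SiNAT10 and 128 ± 9.05 in SiNAT10_TGFB (SD, n = 3). The 4 groups did not overlap, so the balance within this pair ran toward PMEPA1 in both TGF-β1 groups and toward LDLRAD4 in both siRNA groups relative to the same cells without siRNA.

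BAMBI, a transmembrane pseudoreceptor without a kinase domain that sits in the receptor complex in place of a signalling chain (ENSG00000095739; chromosome 10, 28677342 to 28682939, plus strand), rose with each single treatment. Its CPM was 6.25, 4.63 and 5.90 in con (5.59 ± 0.85), 9.63, 7.89 and 11.2 in TGFB (9.59 ± 1.67), 9.71, 10.7 and 7.70 in SiNAT10 (9.36 ± 1.52) and 10.1, 13.7 and 11.6 in SiNAT10_TGFB (11.8 ± 1.83). Con lay below every other library, and the 3 treated groups overlapped. The rise was 0.77 with TGF-β1 (SE 0.16, adjusted p = 0.000919), 0.74 with siRNA (SE 0.16, adjusted p = 0.000554) and 1.07 with both (SE 0.16, adjusted p = 5.9e-06). Adding TGF-β1 to siRNA gave 0.33 (adjusted p = 0.219). Adding siRNA to TGF-β1 gave 0.30 (95% interval −0.02 to 0.62; adjusted p = 0.113), which was called without TGFB replicate 3 (0.43, adjusted p = 0.0437) and with library size as the scaling (0.43, adjusted p = 0.024), in ranges of 0.0437 to 0.432 over libraries left out and 0.024 to 0.27 over the other alternatives. In stellate cells BAMBI is known as a brake on TGF-β signalling that is lost on activation by inflammatory stimuli.

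SKI and SKIL (SnoN), sister proto-oncoproteins that bind SMADs on DNA and recruit histone deacetylase complexes, are given side by side. In the main fit SKIL was called in 5 comparisons and SKI in none. Calls for SKI depended on GC correction and on which libraries were kept. SKIL (ENSG00000136603; chromosome 3, 170357678 to 170396835, plus strand) was at 35.7, 29.7 and 33.2 CPM in con (32.9 ± 3.00) and at 83.4, 101 and 87.5 in TGFB (90.7 ± 9.26). In SiNAT10 it was 25.3, 26.5 and 28.4 (26.7 ± 1.58), and in SiNAT10_TGFB 68.7, 65.5 and 69.3 (67.8 ± 2.04). The groups did not overlap. TGF-β1 raised it by 1.46 (SE 0.083; 2.76-fold; adjusted p = 2.27e-12) without and by 1.34 (SE 0.085; 2.54-fold; adjusted p = 4.24e-11) with siRNA. The siRNA lowered SKIL under TGF-β1 by a log2 change of −0.42 (SE 0.080, adjusted p = 0.000118), to 74.8% of the TGFB mean, and without TGF-β1 by −0.30 (SE 0.086, adjusted p = 0.00522). Its interaction was −0.12 (SE 0.12, adjusted p = 0.699).

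SKI (ENSG00000157933; chromosome 1, 2228695 to 2310119, plus strand) was at 117 ± 2.24 CPM in con, 128 ± 2.24 in TGFB, 114 ± 12.8 in SiNAT10 and 128 ± 11.6 in SiNAT10_TGFB (SD, n = 3), and none of the 6 comparisons called it. The SD was larger in the siRNA groups: SiNAT10 replicate 1 was at 128 CPM against 108 and 105, and SiNAT10_TGFB replicate 3 at 115 against 135 and 134. The TGF-β1 difference was 0.13 (95% interval −0.03 to 0.28; adjusted p = 0.241) without and 0.17 (95% interval 0.02 to 0.33; adjusted p = 0.171) with siRNA. The second was called without SiNAT10 replicate 1 (0.27, adjusted p = 0.0115) or SiNAT10_TGFB replicate 3 (0.24, adjusted p = 0.0493), in a range of 0.0115 to 0.442 over libraries left out. The siRNA difference was −0.04 (95% interval −0.20 to 0.11; adjusted p = 0.667) without and 0.0031 (95% interval −0.15 to 0.16; adjusted p = 0.976) with TGF-β1. Against con, SiNAT10_TGFB differed by 0.13 (adjusted p = 0.148), and by 0.20 without SiNAT10_TGFB replicate 3 (adjusted p = 0.0385, in a range up to 0.405). The ratio of SKI to SKIL in FPKM was 4.59 ± 0.42 in con, 1.82 ± 0.20 in TGFB, 5.49 ± 0.92 in SiNAT10 and 2.42 ± 0.27 in SiNAT10_TGFB, with con and SiNAT10 overlapping and both above the TGF-β1 groups. These FPKM carry no GC correction. With each library's GC trend removed, the siRNA without TGF-β1 moved SKI by 0.31 and SKIL by −0.53, so the overlap of con and SiNAT10 may not hold under it.

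TGIF1, a homeodomain corepressor that competes with coactivators for SMADs (ENSG00000177426; chromosome 18, 3411608 to 3459978, plus strand), was the 1 regulator that fell with TGF-β1. Its CPM was 29.4, 36.0 and 30.9 in con (32.1 ± 3.46), 26.9, 25.8 and 25.96 in TGFB (26.2 ± 0.59), 40.1, 44.2 and 46.5 in SiNAT10 (43.6 ± 3.24) and 43.2, 39.1 and 40.9 in SiNAT10_TGFB (41.1 ± 2.05). Every siRNA library lay above every other, con lay above TGFB, and the siRNA groups overlapped. With TGF-β1 alone TGIF1 fell by 0.29 (SE 0.086, adjusted p = 0.0156), a call that was lost without con replicate 2, its highest con library (−0.20, adjusted p = 0.135), and with log2(FPKM + 1) in limma (−0.22, adjusted p = 0.0514). Its adjusted p ranged from 0.00894 to 0.135 over libraries left out and from 0.000512 to 0.0788 over the other alternatives. The siRNA raised it by 0.44 (SE 0.085, adjusted p = 0.000121) without and by 0.65 (SE 0.086, adjusted p = 1.05e-06) with TGF-β1. TGF-β1 in siRNA cells gave −0.09 (SE 0.085, adjusted p = 0.641), and the interaction of 0.20 (SE 0.12, adjusted p = 0.445) did not pass.

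**Figure D4:**
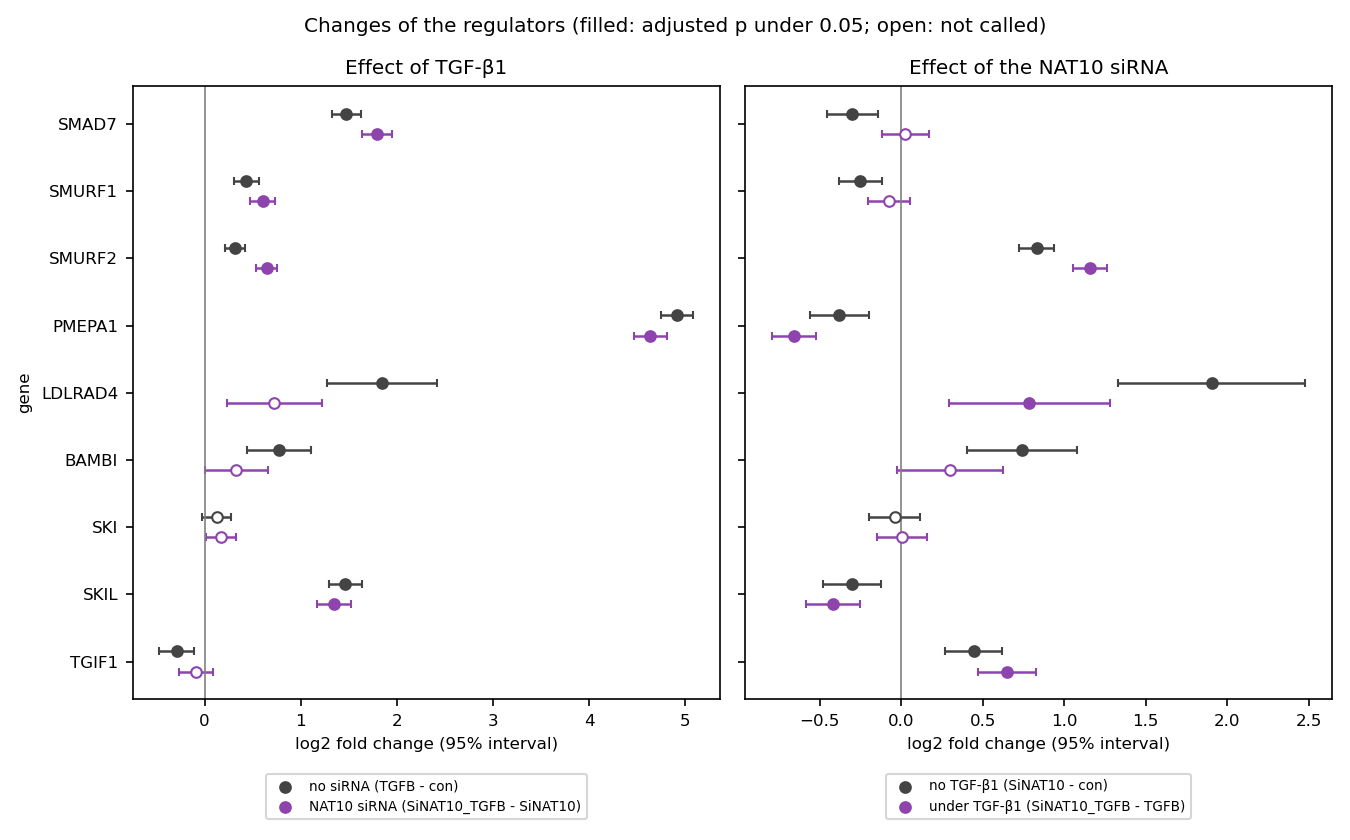
Log2 fold changes with 95% intervals for TGF-β1 (left, without and with siRNA) and for the NAT10 siRNA (right, without and under TGF-β1); filled points were called at an adjusted p under 0.05. PMEPA1 stands apart on the left at 4.91 and 4.64, and on the right SMURF2, LDLRAD4 and TGIF1 lie above 0 in both settings while PMEPA1 and SKIL lie below.

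Whether the siRNA altered the response to TGF-β1 was tested by the interaction, the TGF-β1 effect with siRNA minus that without. It was called for SMURF2 alone, higher, and for no regulator lower, while 1.94% of all genes were called higher and 1.91% lower. At an unadjusted p under 0.05 there were 2 regulators on each side, SMAD7 and SMURF2 above 0 and PMEPA1 and LDLRAD4 below. DESeq2 called SMAD7 and SMURF2 higher and LDLRAD4 lower, and limma voom called 1 higher and none lower. Shares of all genes at the unadjusted p and with these tools are not given here either. The median of the 9 was 0.0447, against 0.00383 over all genes. In SiNAT10_TGFB the mean CPM as a share of that in TGFB ran from 63.4% for PMEPA1 and 74.8% for SKIL through 94.8% for SMURF1, 100.2% for SKI, 102% for SMAD7 and 123% for BAMBI to 157% for TGIF1, 172% for LDLRAD4 and 223% for SMURF2.

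Base composition moved with the siRNA comparisons. Over 13039 genes, Spearman's correlation of the log2 fold change with transcript GC content was −0.335 for SiNAT10 against con and −0.357 for SiNAT10_TGFB against TGFB, and 0.125 for TGF-β1 without and 0.08 with siRNA. The regulators span this range: SKI transcripts are 60.5% GC (percentile 87.2 of the genes), SMAD7 56.7% (75.6), SMURF2 41.2% (15.3) and SKIL 37.2% (2.81). With each library's GC trend removed, SKI was called higher with the siRNA, at 0.31 without TGF-β1 (adjusted p = 7.64e-06) and 0.38 under it (adjusted p = 3.26e-07), and also at 0.47 for both treatments against con (adjusted p = 9.09e-09) and 0.15 for TGF-β1 in siRNA cells (adjusted p = 0.0467). SMAD7 became 0.21 under TGF-β1 (adjusted p = 0.00188), −0.13 without it (adjusted p = 0.087) and 0.34 for its interaction (adjusted p = 0.0097), and SMURF1 −0.14 under TGF-β1 (adjusted p = 0.0206). SKIL, at the low end, became −0.53 without TGF-β1 (adjusted p = 7.65e-08) and −0.63 under it (adjusted p = 3.55e-10), from −0.30 and −0.42. TGIF1 with both treatments against con became 0.23 (adjusted p = 0.0115), from 0.36. SMURF2 kept its calls at 0.63 without and 0.93 under TGF-β1, with an interaction of 0.30 (adjusted p = 0.00101). Calls for SKI, SMAD7 and SMURF1 under the siRNA thus turn on this choice: across all alternatives that kept every library, adjusted p ran from 7.64e-06 to 0.948 for SKI and from 0.00049 to 0.087 for SMAD7 without TGF-β1, and from 3.26e-07 to 1 for SKI, 0.00188 to 0.981 for SMAD7 and 0.0167 to 0.516 for SMURF1 under it.

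The patterns of the regulators over the 12 libraries were compared by Pearson's r of log2 CPM, as a description; the libraries share 4 groups, so r mostly reflects group means. SMAD7, PMEPA1 and SKIL ran together (r = 0.987 for SMAD7 and PMEPA1, 0.984 for PMEPA1 and SKIL, 0.961 for SMAD7 and SKIL), and SMURF1 was near them at 0.948 to 0.961. LDLRAD4 and BAMBI had r = 0.829, and SMURF2 had 0.818 with LDLRAD4, 0.753 with BAMBI and 0.693 with TGIF1, but 0.157 with SMURF1. TGIF1 and SMURF1 had r = −0.542. Among 13042 genes with a mean of at least 50 counts, the 3 most like SMAD7 were PMEPA1 itself (0.987), LTBP2 (0.985) and NEDD9 (0.984), and those most like PMEPA1 were ITGB3 (0.996), LTBP2 (0.996) and NEDD9 (0.995). SKIL was nearest to ITGB1 (0.992), MMP2 (0.989) and NRP2 (0.989).

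SMURF2 was nearest to JAK1 (0.989), PANX1 (0.988) and TMEM173 (0.987), and TGIF1 to TP53INP1 (0.983), ABL2 (0.979) and ZC3H12C (0.976). SMURF1 was nearest to AC145098.2 (0.984), FBLN5 (0.983) and AMIGO2 (0.977). LDLRAD4 was nearest to DKK3 (0.966), MYEOV (0.964) and MYCT1 (0.963), and BAMBI to EMC8 (0.951), TSC22D3 (0.942) and SELENOM (0.936). SKI had the loosest neighbours, HMGXB3 (0.889), AC102945.2 (0.874) and RAB35 (0.871).

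The other genes of the pathway were counted from lists by role, to be read against all genes tested: 11.9% higher and 12.2% lower with TGF-β1 (median −0.00647), and 26.3% higher and 26.8% lower with the siRNA under TGF-β1 (median 0.00795). The shares of each list are given for that reading, and whether a list differs from all genes was not tested. Of 20 other restraints of SMAD signalling, TGF-β1 raised 3 and lowered 8 (15% and 40%; median log2 fold change −0.026), and the siRNA under TGF-β1 raised 5 and lowered 8 (25% and 40%, the first near the 26.3% of all genes; median −0.0317). SPSB1, which directs the type II receptor to degradation, rose with TGF-β1 by 1.60, from 32.1 to 97.5 CPM, and fell by 0.36 with the siRNA under TGF-β1. VASN, a TGF-β-binding membrane protein, rose by 1.42 with TGF-β1, and was at −0.21 with siRNA under TGF-β1 (adjusted p = 0.12). PPP1R15A (GADD34), which with SMAD7 brings a phosphatase to the type I receptor, fell by 0.73 with TGF-β1 and rose by 2.08 with the siRNA under TGF-β1, at 169, 102, 472 and 431 CPM in con, TGFB, SiNAT10 and SiNAT10_TGFB. NEDD4L, a ligase for activated SMADs, fell by 0.97 and rose by 0.87 in the same comparisons. The interaction was called for 3 of the 20 (10% higher and 5% lower, against 1.94% and 1.91% of all genes). It was above 0 for PPP1R15A at 0.60 (adjusted p = 0.000102) and NEDD4L at 0.38 (adjusted p = 0.00525), and below 0 for SPSB1 at −0.89 (adjusted p = 1.13e-05).

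Of 11 corepressor partners of SKI, SKIL and TGIF1, the siRNA under TGF-β1 raised 1 and lowered 6 (9.09% and 54.5%, against 26.3% and 26.8% of all genes; median −0.263), and all 6 genes called without TGF-β1 were lower (26.4% of all genes; median −0.328); TGF-β1 raised 3 and lowered 2 (27.3% and 18.2%). CTBP2, a corepressor that binds TGIF1, rose by 0.24 with TGF-β1 and fell by 1.14 with siRNA under TGF-β1, with 34.7% of its exonic sequence under antisense genes. SIN3A fell by 0.18 and by 0.43, and TBL1X by 0.26 and by 0.35. Of the 6 ligases and deubiquitinases tested, of 7 listed, that sustain SMAD signalling, the siRNA under TGF-β1 raised 3 and left 3 without a call (50% higher, against 26.3% of all genes; median 0.249). RLIM, a ligase known to act on SMAD7 and SMURF2, rose by 0.63 there, and the receptor deubiquitinases USP15 and USP4 by 0.61 and 0.38. RNF111 (Arkadia), the ligase that degrades SMAD7, SKI and SKIL, was at 65.0, 61.2, 66.7 and 64.9 CPM in the 4 groups and was called neither with TGF-β1 (adjusted p = 0.423) nor with siRNA under TGF-β1 (adjusted p = 0.325).

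Of 16 tested receptors and signalling SMADs, of 17 listed, TGF-β1 raised 3 and lowered 3 (18.8% each, against 11.9% and 12.2% of all genes), and the siRNA under TGF-β1 raised 4 and lowered 6 (25% and 37.5%, against 26.3% and 26.8%). TGFBR2, the ligand-binding type II receptor, rose by 1.40 with the siRNA under TGF-β1, from 97.5 to 258 CPM, and TGFBR3, the coreceptor betaglycan, by 1.67, while SMAD5, a BMP-regulated SMAD, fell by 1.15 and BMPR2 by 0.74. Of 7 tested ligands, of 8 listed, TGF-β1 raised 3 and lowered 1 (42.9% and 14.3%), and the siRNA under TGF-β1 raised 2 and lowered 3 (28.6% and 42.9%), against the same shares of all genes. TGFB1 rose by 1.42 with TGF-β1 and fell by 1.19 with siRNA under TGF-β1, and TGFB2, of whose exon bases 26.6% overlap another gene on the same strand, rose by 1.62 and fell by 3.45. INHBA, the activin A subunit, rose by 1.94 and was at −0.09 with siRNA under TGF-β1, and INHBB fell by 1.63 there.

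Of 13 widely used TGF-β/SMAD target genes, TGF-β1 raised 12 without siRNA, with 1 not called (92.3%, against 11.9% of all genes, median 2.33). With siRNA it raised 11 and lowered 1 (84.6% and 7.69%, against 5.92% and 5.15% of all genes, median 1.14). The siRNA under TGF-β1 raised 1 and lowered 10 (7.69% and 76.9%, against 26.3% and 26.8%, median −1.55). The interaction was called lower for 12 and not called for 1 (92.3% lower, against 1.91% of all genes, median −0.867). TGFBI, a secreted matrix protein, had an interaction of −0.87, THBS1 (thrombospondin 1) of −0.87 and fibronectin (FN1) of −0.53, all called. SMAD7, PMEPA1 and SKIL, also SMAD targets, had interactions of 0.32, −0.28 and −0.12, none called in the main fit. Some alternatives called SMAD7 or PMEPA1, as given above. Over all 9 regulators the interaction ran from −1.12 for LDLRAD4, not called, to 0.33 for SMURF2, called. Whether the 9 regulators differ from the target list in this was not tested, and the list was chosen with results of these data known.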

How the data were processed

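RNA of 12 LX-2 libraries (4 groups of 3) was sequenced. Per the submitters' processing notes, fastp, HISAT2 2.2.1 and hg38 were used; how genes were counted (tool, annotation, strand) was not given in the sources used here. The authors deposited gene counts and FPKM. The deposited counts were used as they stand; the deposited FPKM are counts per length times 1 factor per library, and served for levels between genes.

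Counts were filtered with filterByExpr (18560 of 58735 genes), scaled by TMM and fitted in edgeR 4.0.16 (R 4.3.3; 1 model of 4 group means, quasi-likelihood test, Benjamini-Hochberg over all genes, threshold 0.05). SE is the log2 fold change divided by the root of F, and 95% intervals use the moderated degrees of freedom. CPM are counts per 1000000 of TMM-scaled library totals. Gene positions are those of the deposited table; overlaps and GC content come from the GENCODE annotation. Alternatives were RLE, upper quartile and library-size scaling, other filters, DESeq2 1.42.0, limma 3.58.1 (voom, and log2 FPKM with a pseudocount of 1 or 0.1), the contrast's own groups, a replicate block, removal of each library's GC trend (spline, 5 degrees of freedom), a threshold of 0.01 and leaving out each library. The pipeline was tested on simulated data with changes set between TGFB and con in 50 genes of each size. It recovered 12% of log2 changes of 0.25, 58% of 0.5, 92% of 1 and 100% of 2, with 7 false calls among 17983 genes run. A far larger share of genes was called in the real comparison of TGFB and con (11.9% higher and 12.2% lower). The Benjamini-Hochberg adjustment depends on that share, so the recovered shares need not hold for the real data. The other comparisons were not simulated. In each comparison, a small change without a call is not shown to be absent.

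All 9 regulators are named, of each role list at most 4 genes with the smallest p for TGF-β1 or for siRNA under TGF-β1, and for each regulator the 3 nearest genes by r; some genes under this rule are not reported here. The members and lists were chosen with earlier results of these data known.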

Additional observations from a re-analysis of the deposited data

Results flagged for a closer look

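SMURF2 was marked for a second look because its TGF-β1 effect differed between cells with and without the NAT10 siRNA by a test of the difference itself. The interaction was 0.33 on the log2 scale (edgeR's quasi-likelihood test, adjusted p = 0.00797), from effects of 0.32 without siRNA and 0.65 with it, and SMURF2 was higher with TGF-β1 in every library of both pairs of groups.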

How the results depend on the processing

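Over the alternatives that kept every library, 769 log2 fold changes of the regulators kept their call or lack of one. A further 25 passed where they had not, 5 no longer passed, and 2 passed with the opposite sign to an uncalled value. Both of the last kind were SKI with siRNA alone, −0.04 and not called in the main fit. It was 0.31 with the GC trend removed and 0.31 with that and the replicate block. Without single libraries, 639 kept their call, 8 passed where they had not and 1 no longer passed. The interaction called 714 genes, and 1375 with the GC trend removed, 1241 with block and GC together, 424 with log2(FPKM + 1) unfiltered and 383 at 0.01. Regulators called higher by it went from 1 to 2 with library size, DESeq2, GC, or block with GC, and those lower from 0 to 1 with DESeq2, block with GC and filtered log2(FPKM + 1), and ranged from 0 to 1 without single libraries. TGF-β1 in siRNA cells called 2054 genes, and 1302 at 0.01. The siRNA under TGF-β1 called 5 regulators higher, not 3, with GC or block with GC. TGF-β1 alone called 0 regulators lower, not 1, with log2(FPKM + 1) filtered or unfiltered and at 0.01, and 0 to 1 without single libraries. In the main fit, the siRNA under TGF-β1 called 26.3% of all genes higher. Shares of all genes in each direction under the alternatives are not given, so these counts of regulators have no background. The causes were not tested. An interaction fit on the contrast's own groups is the main fit, since it uses all 4.

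Replicate numbers did not pair the libraries: deviations of same-numbered libraries correlated at −0.337 to 0.221 (18 pairs) and of others at −0.214 to 0.325 (36 pairs). With the replicate block, TGF-β1 called 4113 genes without and 1806 with siRNA, the siRNA 9459 without and 9579 with TGF-β1, both treatments 9847 and the interaction 591. The 1 regulator whose call moved was LDLRAD4 with TGF-β1 in siRNA cells (0.75, adjusted p = 0.0314).

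Scaling by library size moved the median of all genes by −0.136 for TGF-β1, where the share of calls that were higher went from 49.5% to 23.4%, and by 0.13 for siRNA under TGF-β1 (49.6% to 61.3%); for TGF-β1 with siRNA the share went from 53.5% to 36.7% and for the interaction from 50.4% to 68.9%. No regulator that was called changed direction with it.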
